A study of Mus musculus with 6 samples.

Results

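Phf2 and 9 other genes of H3K9 demethylases and a partner subunit were followed through peak lists from mouse skeletal muscle. The 10 genes were Phf2, Kdm7a, Arid5b, Kdm1a, Kdm3a, Kdm3b, Jmjd1c, Kdm4a, Kdm4b and Kdm4c, taken from 21887 protein-coding genes of the RefSeq table. They were chosen by name, and every listed peak in the gene and 10 kb either side was taken. Chromatin of gastrocnemius, a calf muscle, came from male C57BL/6 mice aged 4 weeks and was profiled by CUT&RUN. In this assay a nuclease held at an antibody cuts out the DNA around marked nucleosomes, and the released fragments are sequenced. All animals used carried floxed Phf2 (Phf2 flox/flox). Control animals (Ctrl) were Acta1 Cre- and conditional knockout animals (CKO) were Acta1 Cre+. Acta1 is skeletal muscle actin, so its Cre acts in muscle fibres, and whole muscle also holds vessel, connective tissue, immune and nerve cells whose Phf2 it leaves in place. Of the 6 libraries, Ctrl gave 1 for H3K4me3, 1 for H3K9me2 and the inputs 1 and 2, and CKO gave 1 for H3K9me2 and 1 input. The title of the H3K4me3 sample calls it wild type, and its genotype label puts it in Ctrl.

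Methyl groups on lysine 9 of histone H3 mark silent chromatin, and demethylases take them off. H3K4me3, by contrast, marks the starts of active genes. PHF2 and KDM7A are JmjC proteins whose PHD finger binds H3K4me3, and ARID5B is the DNA-binding partner of PHF2. KDM1A, also called LSD1, removes methyl groups with the cofactor FAD and is a subunit of the CoREST complex. The KDM3 proteins, KDM3A, KDM3B and JMJD1C, act on mono- and dimethylated H3K9, and the KDM4 proteins on H3K9me2 and H3K9me3.

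The start sites these peaks turn on are shown first. RefSeq (GRCm38.p6, the assembly of mm10) gave 12 start sites for 8 of the 10 genes, each as a window of 250 bases before to 50 after the start. The following 4 windows show the range of CpG content, with every CpG in capitals: Phf2 at chr13:48870836-48871135 (minus strand) holds 63, Arid5b at chr10:68278677-68278976 (minus strand) holds 7, and Kdm4c has an outer start with 0 at chr4:74242247-74242546 and an inner start with 28 at chr4:74251629-74251928 (both plus strand).
Phf2: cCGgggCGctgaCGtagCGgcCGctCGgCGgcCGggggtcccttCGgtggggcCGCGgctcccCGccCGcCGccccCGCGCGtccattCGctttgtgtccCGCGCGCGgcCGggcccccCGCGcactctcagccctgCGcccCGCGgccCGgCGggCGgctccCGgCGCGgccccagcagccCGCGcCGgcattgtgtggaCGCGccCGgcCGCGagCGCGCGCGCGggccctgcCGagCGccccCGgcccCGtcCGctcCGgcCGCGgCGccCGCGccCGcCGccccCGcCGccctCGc
Arid5b: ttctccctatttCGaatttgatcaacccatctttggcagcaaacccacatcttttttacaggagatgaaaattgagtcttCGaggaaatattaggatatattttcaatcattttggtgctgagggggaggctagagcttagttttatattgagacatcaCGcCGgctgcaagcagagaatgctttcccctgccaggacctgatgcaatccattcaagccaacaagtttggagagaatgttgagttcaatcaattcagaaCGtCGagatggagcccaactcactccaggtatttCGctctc
Kdm4c outer start: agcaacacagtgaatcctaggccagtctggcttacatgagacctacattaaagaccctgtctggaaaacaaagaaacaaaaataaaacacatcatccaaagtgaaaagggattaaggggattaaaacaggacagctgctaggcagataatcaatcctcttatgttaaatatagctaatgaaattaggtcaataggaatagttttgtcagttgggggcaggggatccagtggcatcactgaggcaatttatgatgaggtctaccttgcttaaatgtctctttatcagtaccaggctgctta
Kdm4c inner start: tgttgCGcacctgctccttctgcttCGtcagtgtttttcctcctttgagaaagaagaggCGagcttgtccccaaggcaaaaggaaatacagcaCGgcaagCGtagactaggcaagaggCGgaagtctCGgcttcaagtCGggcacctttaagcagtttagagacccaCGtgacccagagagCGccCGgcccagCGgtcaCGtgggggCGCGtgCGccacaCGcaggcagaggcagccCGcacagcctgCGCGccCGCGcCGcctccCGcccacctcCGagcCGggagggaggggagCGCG
Kdm3a is shown with other capitals, at chr6:71632868-71633167 (minus strand), because an H3K9me2 summit of CKO lay next to this start. Capitals mark 2 CCAAT boxes (CCAAT) and 3 GC boxes (GGGCGG), each searched on both strands.
Kdm3a: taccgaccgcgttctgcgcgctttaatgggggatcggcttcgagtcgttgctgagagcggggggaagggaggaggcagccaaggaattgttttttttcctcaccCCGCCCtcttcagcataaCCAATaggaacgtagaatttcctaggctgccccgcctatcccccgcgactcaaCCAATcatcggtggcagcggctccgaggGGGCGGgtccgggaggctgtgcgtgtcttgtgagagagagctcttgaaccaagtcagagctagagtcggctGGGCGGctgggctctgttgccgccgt

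H3K4me3 followed the CpG content of these windows. An H3K4me3 peak overlapped 10 of the 12 windows, against 39.0% of 32851 windows in the table. The windows without one were the CpG-free outer start of Kdm4c and the CpG-free inner start of Kdm3a, 23.8 kb into that gene from its upper start. Among windows of 0 to 4 CpG, 1.01% had an H3K4me3 peak, rising to 96.5% at 30 or more. Kdm7a held 65 CpG, Phf2 63, the first start of Jmjd1c 47, the upper starts of Kdm3a 40 and 24, Kdm1a 29, Kdm4a 13 and the second start of Jmjd1c 13. The median was 23 over all windows with H3K4me3 and 3 over those without. Arid5b stood at the low end of the marked starts, in a class of 5 to 9 CpG of which 12.7% had a peak.

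**Figure D1:**
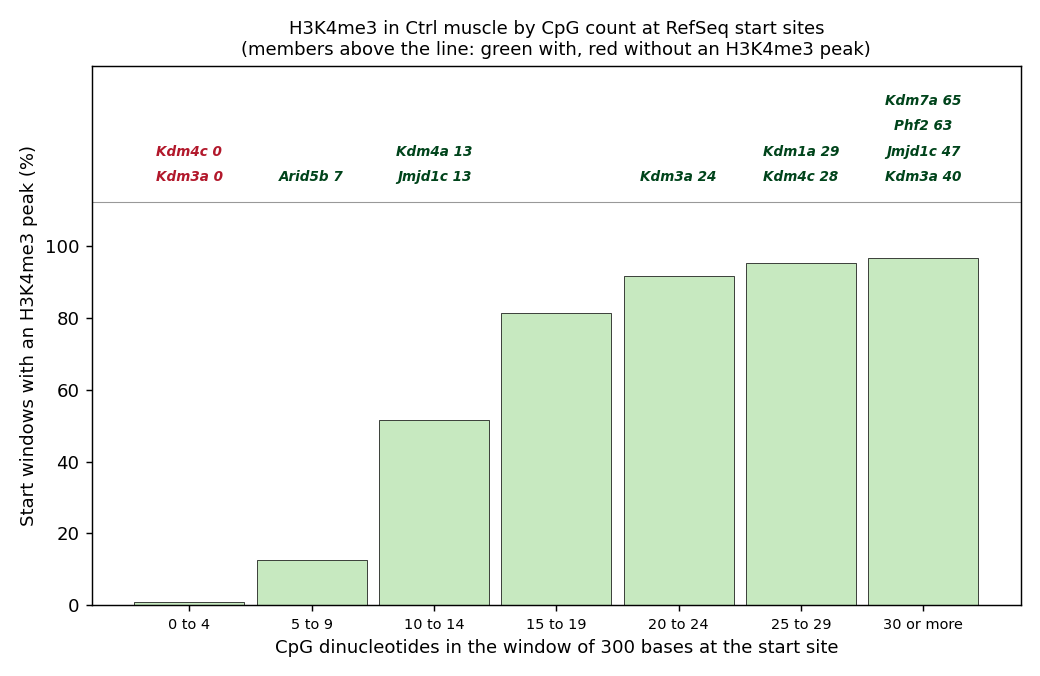
Share of RefSeq start windows with an H3K4me3 peak in Ctrl (vertical axis, percent) by the number of CpG in the window (horizontal axis); bars stand for all windows, and names above the line give the windows of the 8 genes with their CpG count. The share climbs from 1.01% to 96.5%, and the windows named in red, of Kdm4c and Kdm3a, had no CpG and no peak.

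The promoters had few other letters in common. A GC box was found in 6 of the 12 windows and in 35.7% of all windows, with 5 in Phf2 and 3 in Kdm7a. CCAAT was found in 3 of 12 and in 37.4% of all, at Kdm3a, Kdm1a and Kdm4a. Arid5b alone among the 12 windows matched the letters of a TATA box (TATAAA), found on either strand in 13.6% of all windows. Its match was on the strand opposite to the one printed. The inner start of Kdm4c held 2 copies of the E-box CACGTG, a motif of 7.15% of windows, and each copy also holds ACGTG, the hypoxia response core, on both strands. ACGTG was found in 19.6% of all windows and also at Kdm7a. The MyoD E-box CAGCTG, in 16.3% of windows, occurred once, at the unmarked outer start of Kdm4c. Searches on both strands for GCATGCGC (NRF1, 2.71% of all windows), AAGATGGCG (YY1, 1.40%) and CTCGCGAGA (ZBTB33, 0.676%) matched none of the 12. These are matches of letters, not measured binding sites.

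Each peak is described by 3 values. The fold is the authors' own, the pileup at the summit over local background. The number of fragments at the summit was recovered from the fold and its p-value, with an exact Poisson 95% interval that covers counting error only. A summit is the highest point of a peak that passed a threshold, and the interval does not allow for that choice. The lowest local background in a list served as that library's genome-wide coverage, and so its depth: 0.482 fragments for H3K4me3, 0.391 and 0.544 for H3K9me2 in Ctrl and CKO, 0.294 and 0.292 for the Ctrl inputs and 0.371 for the CKO input. The lists held 16573, 3703, 12832, 3071, 1309 and 10931 peaks in the same order. The longest H3K9me2 list was thus also the deeper library, and genotype and depth cannot be told apart. With 1 library per mark and genotype, no spread between animals is known, and the genotypes were compared without a test. For the tissue, H3K4me3 lay within 2 kb of 8 of 12 skeletal muscle markers, against 63.8% of all genes. Acta1, Ckm, Myh1 and Myh4 had none. The count is near the share over all genes, so it does not single out muscle. H3K4me3 also lay at 2 of 5 endothelial, 1 of 5 fibroadipogenic, 2 of 5 macrophage, 2 of 4 satellite cell and 1 of 4 Schwann markers. In whole muscle, fewer marked cells and less mark per cell cannot be told apart.

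All 10 genes had an H3K4me3 peak, 19 peaks in all, while counts of H3K9me2 peaks at them were near or below the share over all genes. Among all protein-coding genes 68.1% had such a peak, and among the 4525 genes as long as these (43.1 to 187 kb) 83.6%. No gene had an H3K9me2 peak in Ctrl, against backgrounds of 6.34% and 8.53%. In CKO there were 2, Kdm3a and Kdm4c, which is close to 19.4% of all genes and below 28.2% of genes of like length. Input 1 had a peak at Kdm3b and Jmjd1c (11.8% of all genes and 17.8% of like length) and input 2 at Kdm7a (5.37% and 9.17%). Either Ctrl input therefore marked 3 genes (15.5% and 24.0%). The CKO input marked 7, all but Phf2, Kdm4a and Kdm4b (39.8% and 58.5%). Once H3K9me2 peaks that overlapped any input peak were removed, none was left at the 10 genes in Ctrl (3.92% and 4.51%) or in CKO (12.5% and 17.0%).

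**Figure D2:**
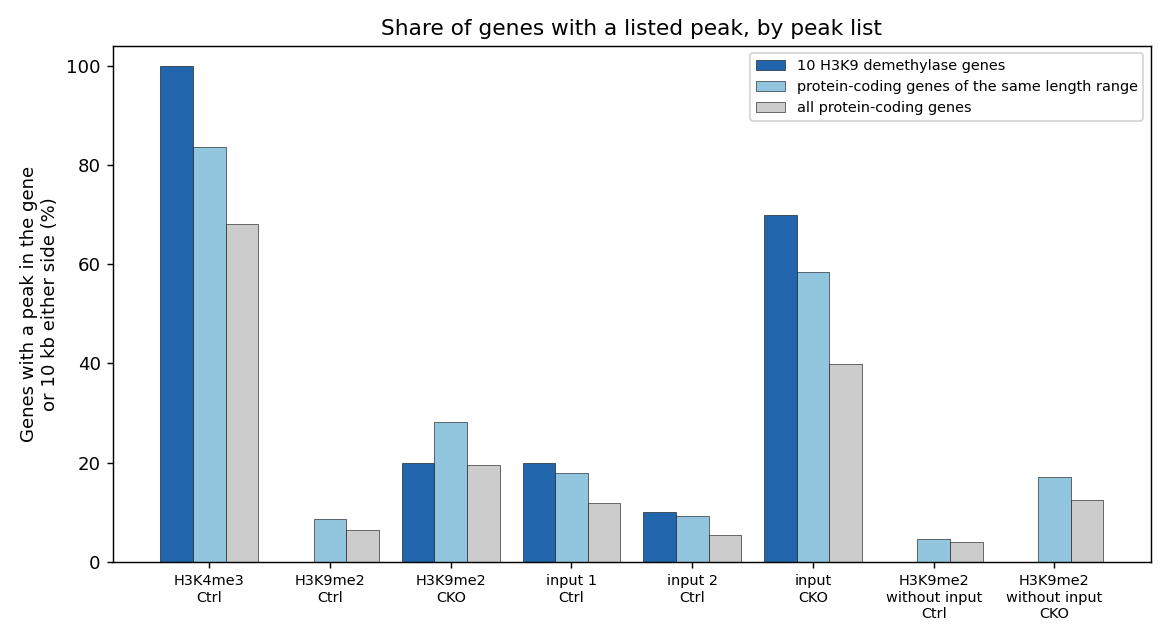
Percent of genes with a peak in the gene or 10 kb either side (vertical axis) for each peak list (horizontal axis), with bars for the 10 genes, for protein-coding genes of the same length range and for all protein-coding genes. The 10 genes stand at 10 of 10 for H3K4me3, 7 of 10 for the CKO input and 0 for H3K9me2 outside input peaks.

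**Figure D3:**
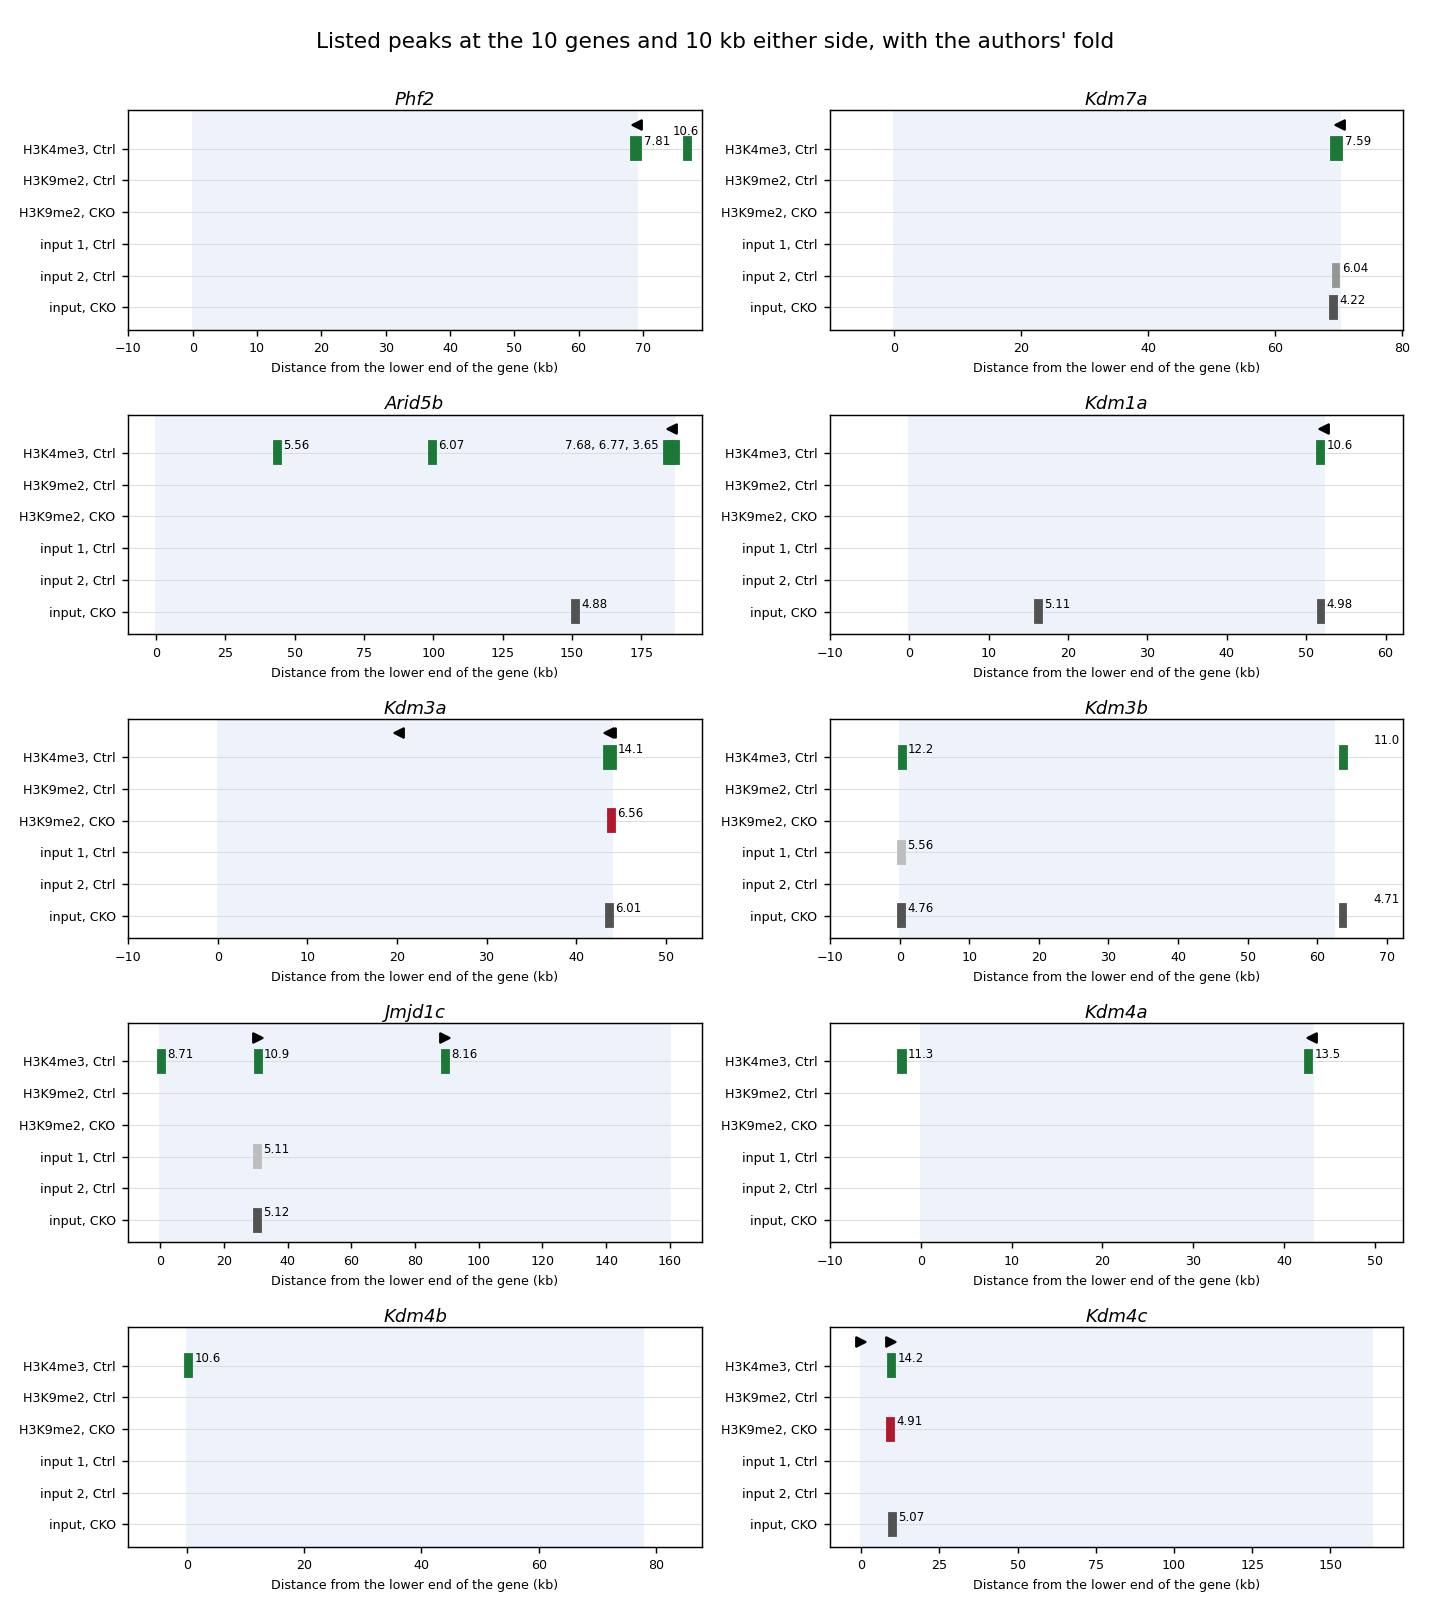
Peaks of the 6 lists (rows) along each gene and 10 kb either side, by distance from the gene's lower end in kb; shading is the gene, arrowheads are RefSeq starts with their direction (not drawn for Kdm3b and Kdm4b), and each bar is a peak, drawn no narrower than a fixed minimum, with the authors' fold beside it. Every gene has at least 1 H3K4me3 bar, and the H3K9me2 bars of Kdm3a and Kdm4c stand under H3K4me3 and above CKO input bars.

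Phf2, the gene floxed in every animal, lies at chr13:48801750-48870885 and is read from the upper end. Its 2 peaks were both of H3K4me3 in Ctrl, and none of the 2 H3K9me2 or 3 input lists had one. The start peak, chr13:48869852-48871516, had a fold of 7.81 with 81 fragments (64.3 to 101) and was 1665 bp wide, a width that 97.2% of H3K4me3 peaks did not exceed. Its summit was 333 bp upstream of the Phf2 start and 267 bp past the start of Phf2os1, a non-coding gene read the other way from a start 66 bp away. The peak covered start windows of both genes, so their H3K4me3 cannot be told apart. A smaller peak, chr13:48878298-48879010, had a higher fold of 10.6 from fewer fragments, 24 (15.4 to 35.7). It lay 7.41 kb beyond Phf2, overlapped the last 52 bp of Phf2os1 and ended 206 bp before the lower end of Fam120a. Because these lists hold no H3K4me3 from CKO, they do not report on the recombined Phf2 allele.

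No H3K9me2 peak came near Phf2 in either genotype. The nearest in CKO was 97.2 kb away at chr13:48968082-48968472, with a fold of 4.53 from 6 fragments, over the start window of Fam120a. It lay inside an H3K4me3 peak of fold 7.02 from 73 fragments. In Ctrl the nearest H3K9me2 peak was 504 kb away, with a fold of 6.05 from 9 fragments. Among 1497 genes within 20% of the length of Phf2, 317 (21.2%) had its pattern of H3K4me3 alone, against 24.3% of all protein-coding genes. Among those closest to it in highest H3K4me3 fold were Pald1, Kdm4b, Pus10 and Atp2b3, each 10.6. For Phf2 that fold is of the peak near Fam120a, not of its start peak, which had 7.81.

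Kdm7a, the close relative of Phf2, had the widest H3K4me3 peak of the 10 genes. This peak, chr6:39205380-39207154, was 1775 bp wide (98.2% of the list at or below), with a fold of 7.59 and 96 fragments (77.8 to 117). Like that of Phf2 it was broad with a low fold, over a local background of 11.8 fragments, against 9.49 at Phf2. Inside it lay an input 2 peak of fold 6.04 from 9 fragments and a CKO input peak of fold 4.22 from 7. Their summits were 12 and 471 bp from that of H3K4me3.

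Arid5b, whose product brings PHF2 to DNA, had 5 H3K4me3 peaks, the most of the 10. A group of 3 lay around the start: folds of 7.68, 6.77 and 3.65 from 87, 81 and 43 fragments, with summits 1822 and 69 bp inside and 1358 bp upstream. Deep in the gene lay 2 weaker ones, with folds of 5.56 and 6.07 from 19 and 8 fragments. All 5 folds were below the list's median of 10.01. The peak at the start itself was 424 bp wide, and 12.5% of the list was as narrow or narrower. A CKO input peak of fold 4.88 from 6 fragments, 34897 bp into the gene, overlapped no other list.

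Kdm1a had 1 H3K4me3 peak, at its start, chr4:136601973-136602803, with a fold of 10.6 from 76 fragments (59.9 to 95.1). A CKO input peak inside it had a fold of 4.98 from 6 fragments. Another CKO input peak, fold 5.11 from 6 fragments, lay alone 35876 bp into the gene. The nearest H3K9me2 peaks were 1197 kb away in CKO and 215 kb away in Ctrl.

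Kdm3a was 1 of the 2 genes with H3K9me2 in CKO. Its H3K4me3 peak, chr6:71632061-71633378, had a fold of 14.1 from 126 fragments (105 to 150) and covered the 2 upper starts. The H3K9me2 peak, chr6:71632603-71633247, had a fold of 6.56 from 10 fragments (4.80 to 18.4). It lay wholly inside the H3K4me3 peak, with its summit 1 bp upstream of the start printed above and 204 bp from the H3K4me3 summit. A CKO input peak shared 465 bp with it and had nearly the same height, a fold of 6.01 from 9 fragments (4.12 to 17.1), at a summit 103 bp away. Relative to each library's genome-wide coverage, H3K9me2 stood at 18.4 times (8.82 to 33.8) and input at 24.3 times (11.1 to 46.1), so the intervals overlapped.

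Kdm3b, on chromosome 18 at 34777008 to 34839370, had an H3K4me3 peak of fold 12.2 from 122 fragments (101 to 146) at its lower end. Input 1 (fold 5.56, 8 fragments) and the CKO input (fold 4.76, 7 fragments) had peaks there too. A second H3K4me3 peak, fold 11 from 28 fragments, lay 1.05 kb beyond Kdm3b at the lower end of Reep2, over a CKO input peak of fold 4.71 from 8 fragments. The nearest H3K9me2 peaks were 21.0 kb away in CKO and 21.2 kb away in Ctrl, with folds of 4.56 and 5.34 from 8 fragments each. Input 1 listed a peak at the same place, with a fold of 4.82 from 10 fragments. Both H3K9me2 peaks lay inside an H3K4me3 peak over Egr1, of fold 7.23 from 131 fragments.

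Jmjd1c had 3 H3K4me3 peaks. The tallest, fold 10.9 from 124 fragments (103 to 148), lay at the first RefSeq start of the promoter table, 30.7 kb into the gene. Over it lay peaks of input 1 (fold 5.11, 6 fragments) and of the CKO input (fold 5.12, 7 fragments). The second start, 58.7 kb further on, had a peak of fold 8.16 from 16 fragments (9.15 to 26.0). The third peak, fold 8.71 from 74 fragments, covered the lower end of Jmjd1c and the upper end of Reep3, which meet there. No H3K9me2 peak lay within 292 kb in CKO or within 674 kb in Ctrl.

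Kdm4a and Kdm4b had H3K4me3 and nothing else. The start peak of Kdm4a, chr4:118179273-118180054, had a fold of 13.5 from 65 fragments (50.2 to 82.8). A taller one in fragments, 93 at fold 11.3, lay 1.66 kb below Kdm4a over the start of St3gal3. Kdm4b, at chr17:56325970-56403774, had 1 peak at its lower end, fold 10.6 from 65 fragments. For Kdm4a the nearest H3K9me2 peaks, 367 kb away, were alike in both genotypes, with a fold of 10.1 from 35 fragments in Ctrl and 33 in CKO. Input 2 listed the same place, at fold 11.2 from 39 fragments.

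Kdm4c carried the tallest H3K4me3 peak of the 10 genes and the other H3K9me2 peak of CKO. The H3K4me3 peak, chr4:74251629-74252866, had a fold of 14.2 from 145 fragments (122 to 171), and 98.5% of the list had no more fragments. It lay at the inner start, 9.38 kb from the outer one. The H3K9me2 peak, chr4:74251787-74252138, had a fold of 4.91 from 7 fragments (2.81 to 14.4), below its list's median of 5.42. Its summit lay 8 bp past the start and 10 bp from the H3K4me3 summit. A CKO input peak of fold 5.07 from 7 fragments shared 225 bp with it. Scaled to genome-wide coverage, H3K9me2 stood at 12.9 times (5.18 to 26.5) and input at 18.9 times (7.59 to 38.9).

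**Figure D4:**
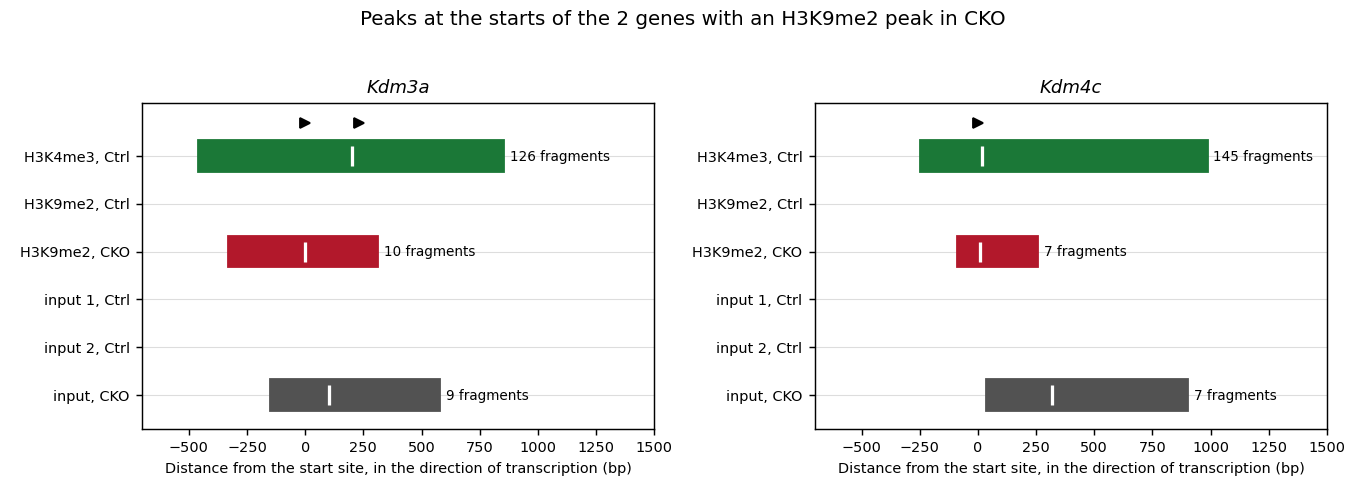
Peaks of the 6 lists (rows) at Kdm3a and Kdm4c by distance in bp from the start site, in the direction of transcription; bars span the peak, white ticks mark summits and arrowheads RefSeq starts. The H3K9me2 bars hold 10 and 7 fragments and the CKO input bars 9 and 7, against 126 and 145 for H3K4me3.

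Both H3K9me2 peaks rested on few fragments, and the Ctrl library was shallower. Within the CKO list the Kdm3a peak stood above the middle, with 78.5% of peaks at or below it in fold, 69.8% in fragments and 91.1% in width. For Kdm4c these were 32.8%, 31.3% and 21.2%. At Ctrl coverage the 10 fragments of Kdm3a would correspond to 7.19 and the 7 of Kdm4c to 5.03. Ctrl peaks at genome-wide background began at 4 fragments, and the Ctrl median was 6. With counts this low, the missing Ctrl peaks do not show a difference between genotypes at either gene. Both CKO peaks overlapped H3K4me3 and CKO input together, as did 7.91% of all CKO H3K9me2 peaks and 18.2% of those in genes or 10 kb either side. Of CKO H3K9me2 peaks over H3K4me3, 56.6% also overlapped a CKO input peak, against 13.8% of the rest. Whether H3K9me2 at these starts was above the input signal was not tested. Seen from H3K4me3, 2 of the 19 peaks at these genes overlapped H3K9me2 of CKO (10.8% of all H3K4me3 peaks) and 7 overlapped the CKO input (32.7%). Of the input peaks at the 10 genes, 7 of 9 in CKO and 3 of 3 in Ctrl overlapped H3K4me3. Among all input peaks in genes or 10 kb either side, 64.3% in CKO and 65.8% in Ctrl did so.

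By highest H3K4me3 fold the order was Kdm4c at 14.2, Kdm3a at 14.1, Kdm4a at 13.5, Kdm3b at 12.2 and Jmjd1c at 10.9. Kdm1a, Phf2 and Kdm4b followed, each at 10.6, then Arid5b at 7.68 and Kdm7a at 7.59. Neighbours in this order cannot be separated, since 1 library gives no spread. The order also depends on the measure. Kdm7a, last by fold, was at place 5 by fragments with 96 and first by width. For Phf2 the 10.6 belongs to the peak near Fam120a, and its start peak had 7.81. Phf2, Kdm7a and Arid5b, the PHF2 group, had start peaks with folds of 6.77 to 7.81 from 81 to 96 fragments. Such values are common in the list: 23.9% to 31.8% of H3K4me3 peaks were at or below these in fold. In fragments 71.9% to 82.3% were.

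**Figure D5:**
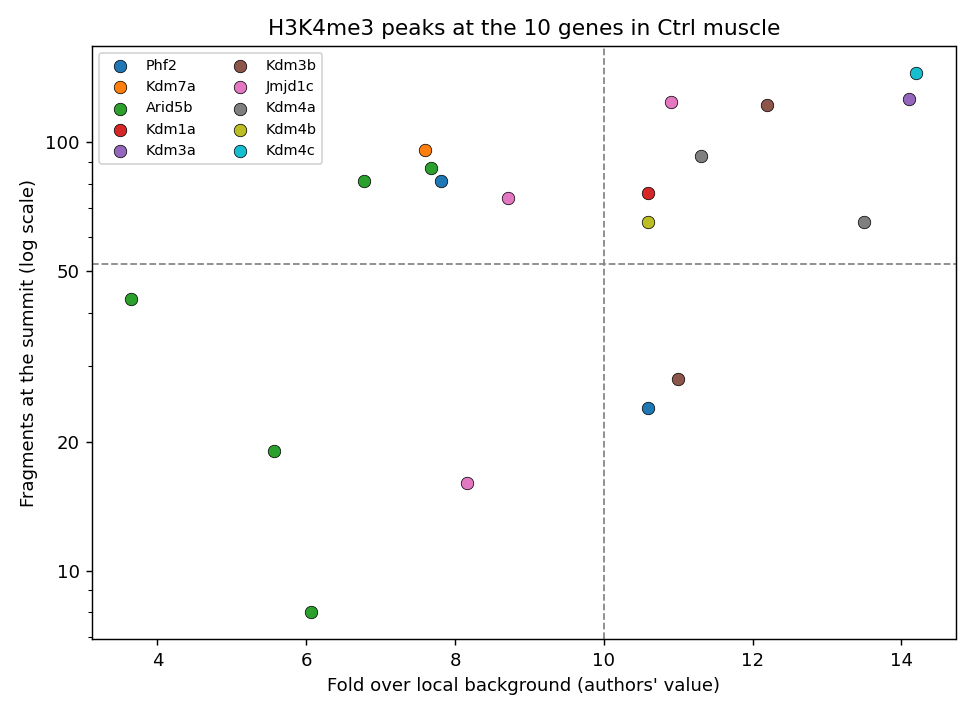
Fragments at the summit (vertical axis, log scale) against the authors' fold (horizontal axis) for the 19 H3K4me3 peaks at the 10 genes in Ctrl, coloured by gene; dashed lines are the medians of the whole list, 52 fragments and a fold of 10.01. Start peaks of Phf2, Kdm7a and Arid5b lie left of the median fold and above the median of fragments, and those of Kdm3a and Kdm4c lie at the top right.

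Related enzyme genes were read the same way, in the gene and 10 kb either side. Their counts are set beside all genes only, without a match for length. Genes of 43.1 to 187 kb more often had a peak of H3K9me2 in CKO (28.2% against 19.4%) and of the CKO input (58.5% against 39.8%). Of 16 other histone lysine demethylase genes, 14 had H3K4me3 (68.1% of all genes), all but the Y-linked Kdm5d and Uty. H3K9me2 peaks were found at 3 in Ctrl (6.34% of all genes) and 5 in CKO (19.4%), and CKO input peaks at 10 (39.8%). In CKO these 5 were Riox2 (fold 6.88, 10 fragments), Riox1 (6.56, 10), Hr (4.86, 7), Kdm6a (4.53, 6) and Kdm1b (4.18, 6). All 5 overlapped both H3K4me3 and a CKO input peak, against 18.2% of CKO H3K9me2 peaks in genes or 10 kb either side, and 56.6% of those over H3K4me3 also overlapped CKO input. In Ctrl they were Kdm8 (fold 6.11, 9 fragments), Hr (5.03, 6) and Kdm1b (4.80, 6). H3K9me2 outside any input peak was found at 2 of the 16 in Ctrl, Kdm8 and Hr (3.92% of all genes). In CKO it was found at 0 (12.5%). Either Ctrl input had a peak at 0 of the 16 (15.5%). Hr encodes Hairless, an H3K9 demethylase of skin, and its Ctrl and CKO peaks lay at different places.

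All 9 H3K9 methyltransferase genes, which encode the opposing enzymes, had H3K4me3 (68.1% of all genes) and a CKO input peak (39.8%). H3K9me2 was found at none in Ctrl (6.34% of all genes) and at 2 in CKO (19.4%), Mecom (fold 8.70, 14 fragments) and Prdm16 (4.96, 7). Their highest peaks overlapped no input or H3K4me3 peak. Among all genes, 12.5% had H3K9me2 of CKO outside any input peak. All 9 genes of CoREST partners of LSD1 had H3K4me3 (68.1% of all genes), with H3K9me2 at 1 in Ctrl (6.34%) and 5 in CKO (19.4%) and CKO input at 4 (39.8%). Hdac2, a deacetylase of the complex, had H3K9me2 in Ctrl (fold 4.65, 6 fragments) and CKO (4.91, 9), over H3K4me3 and a CKO input peak of fold 6.18 from 10 fragments. H3K9me2 in CKO outside any input peak was found at 3 of these genes (12.5% of all genes), Phf21a (fold 4.91, 7 fragments), Rcor1 (4.18, 6) and Zmym2 (4.02, 7). The peaks of Rcor1 and Zmym2 overlapped H3K4me3. Phf21a had 2 H3K9me2 peaks in CKO, and the one given here, its highest, overlapped no other list. The highest H3K4me3 peak of Phf21a also overlapped an H3K9me2 peak of CKO.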

How the data were processed

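Peak lists of 6 CUT&RUN libraries were used, grouped by the labels' titles and genotypes. Separate animals, the preparation of input and its use in peak calling are points not given in the sources used here. Alignment with Bowtie2 to mm10 and peak calling with MACS2 are named in the submitters' processing notes, without versions. The authors deposited, for each peak, the summit offset in bp, a score, the fold (ratio of summit pileup to local background, each plus 1) and −log10 of both the p-value and the q-value. The score deposited was not used for any value, and every listed peak had a q-value of about 0.05 or less.

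Peaks of the autosomes, X and Y were set against the RefSeq table (GRCm38.p6), with an overlap of 1 bp or more. That table has no exons, so peaks are placed by gene ends and start windows. Summit fragments were solved from fold and p-value, with the listed −log10 p matched within 0.1%, and the script was tested on simulated data. The members and gene lists were chosen with earlier results of these data known. Named were the 10 genes with every peak, neighbours within 2 kb of one, the nearest peak beyond 10 kb, the 5 genes most like Phf2, and up to 3 genes per pathway list and mark by fold with those lacking H3K4me3. Kdm6a and Zmym2 were named after their values were seen, to complete small counts. 1 of the genes named by the rule is not reported here. Alternatives were other flanks, stricter folds or q, peak centres, other removal of input, leaving out either Ctrl input, and ordering by fragments or width. The scripts ran under Python 3.11.15 with scipy 1.17.1, pandas 2.3.3, numpy 2.4.6 and matplotlib 3.10.9.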

Additional observations from a re-analysis of the deposited data

How the results depend on the processing

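Of 46 alternative values for the counts of genes and the order, 36 kept within 1.5 times of the reported count, and 10 moved. With 50 kb either side, 1 gene (Kdm3b) had an H3K9me2 peak in Ctrl and 6 had a peak in either Ctrl input. With peaks at or above their list's median fold, H3K9me2 of CKO was left at 1 gene (Kdm3a) and the CKO input at 3. With q of 1e-05 or less, H3K9me2 of CKO was left at 1 gene (again Kdm3a, whose −log10 q was 6.11 against 3.50 at Kdm4c), and either Ctrl input and the CKO input at 0. Leaving out 1 Ctrl input left 1 to 2 genes with a Ctrl input peak: 1 without input 1 and 2 without input 2. Of the 10 places by H3K4me3 fold, 3 stayed by summit fragments and 1 by width. H3K4me3 remained at 10 genes except with folds at or above the median, where it was at 8. With 50 kb either side its count was fixed at 10, since all 10 genes already had a peak. H3K9me2 outside input peaks was at 0 genes in both genotypes under each alternative run, with 50 kb either side included. Only the 50 kb setting was able to change this 0. Ctrl had no H3K9me2 peak at the 10 genes before removal, so its counts were fixed at 0 under narrower or stricter settings too. In CKO both peaks overlapped a CKO input peak, and every other setting kept that input. Those fixed values are among the 36 and do not bear on stability. With 50 kb, the H3K9me2 peaks at Kdm3b in both genotypes overlapped an input peak. No paired analysis was possible because there was 1 library per mark and genotype and no test was made. Summits of 6 to 10 fragments limit what the H3K9me2 and input peaks at these genes can show. A gene with no listed peak is a gene below the list's threshold, not one shown to lack the mark.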

Other observations

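The wider surroundings of the 10 genes differed. Within 500 kb of Kdm4c lay 14 H3K9me2 peaks in CKO and 5 in Ctrl, 12.0 and 4.30 per Mb, against medians over all genes of 2.98 and 0.952. In CKO 97.3% of genes, and in Ctrl 97.2%, had no higher density. Of these peaks, 9 in CKO and 2 in Ctrl overlapped no input peak, 7.74 and 1.72 per Mb. By this measure 93.0% of genes in CKO and 82.6% in Ctrl had no higher density. The CKO input itself was not dense there, with 5 peaks or 4.30 per Mb against a median of 5.97, and H3K4me3 had 3.44 per Mb against 10.3. Within 86.3 kb of Kdm4c both genotypes listed the same region outside input peaks, chr4:74492139-74492494 in CKO (fold 5.27, 8 fragments) and chr4:74492051-74492462 in Ctrl (fold 5.49, 7 fragments).

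Phf2 had 3 H3K9me2 peaks of CKO within 500 kb, 2.81 per Mb against the median of 2.98, and 43.0% of genes had no higher density. It had 0 of Ctrl, as did 43.3% of genes. Of the 3, 2 overlapped no input peak, 1.87 per Mb against a median of 1.98. Kdm7a had 0 in both, and 12.1% of genes had 0 in CKO. Kdm3a had 5 in CKO and 1 in Ctrl, 4.79 and 0.958 per Mb, with 64.6% and 50.8% of genes at or below. Kdm4b lay in the surroundings densest in H3K4me3, with 37 peaks or 34.3 per Mb, and had 2 H3K9me2 peaks in CKO and 1 in Ctrl, with 28.9% and 47.7% of genes at or below. Peaks just outside the 10 kb flank were those of Parp12, 17.8 kb from Kdm7a with an H3K4me3 fold of 10.3, and of Fam53c, 17.1 kb from Kdm3b with a fold of 15.3. The farthest one inside was that at 7.41 kb from Phf2.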
